A study of Homo sapiens with 18 samples.

Results

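In human breast epithelial cells, 1575 promoter regions carried an RNA polymerase II (RNAPII) peak before treatment with triptolide (TPL) that had no counterpart in the peak lists after it, whether the cells were untransformed or transformed. They were chosen by position alone from 4 deposited lists, 1 per condition, of RNAPII peaks over a transcription start site (TSS): a peak of the untransformed cells (NT) had to overlap a peak of the transformed cells (TAM) by 1 bp or more, and no peak of NT + TPL and no peak of TAM + TPL. The 1575 regions are 14% of the 11222 NT peaks. A further 6948 NT peaks (61.9%) overlapped a peak in each of the other 3 lists and are called kept here, 514 were missing only from the NT + TPL list and 514 only from the TAM + TPL list. Since the lists chose the regions, their loss is a description and carries no test, whereas the RNA was measured separately and is tested.

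The cells are MCF10A-ErSrc, a single established human breast line in which every group carries a Src oncoprotein fused to an oestrogen receptor domain. Tamoxifen switches the fusion on and transforms the cells (TAM), and cells without tamoxifen are the progenitors (NT). Each state then received either DMSO or TPL (labelled TPL-125nM, the dose) over 4 h, which gives the groups NT, NT + TPL, TAM and TAM + TPL. RNA-Seq (8 libraries) and RNAPII ChIP-Seq (8 samples) had 2 biological replicates per group, and 2 inputs came from cells without TPL. In bulk RNA, fewer cells of a kind and less RNA per cell cannot be told apart, and each library is scaled to itself, so the total RNA per cell was not measured.

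TPL binds XPB, the DNA translocase of the general transcription factor TFIIH that helps to open promoter DNA, and so acts on initiation by RNAPII. At many mammalian promoters RNAPII also pauses shortly after the start, and antibodies against RNAPII therefore give their strongest peak around the TSS. An mRNA falls after a block of synthesis only as fast as the existing molecules decay, and short-lived transcripts such as those of cytokines and growth regulators are known to respond soonest.

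The promoter sequences shown first belong to the 3 genes with the largest falls and the 3 with the largest rises of RNA among those called in both states, by the mean of both log2 fold changes, and to 2 of the widest peaks, as the regions on which the results below turn. Each is 200 bases of the hg19 (GRCh37) genome that end just before the TSS, 5′ to 3′ on the strand of the gene, and capitals mark matches to the short motifs defined further down. They cover chr4:74734910-74735109 (plus strand) for CXCL1, chr6:1389611-1389810 (plus) for FOXF2, chr3:189507248-189507447 (plus) for TP63, chr1:110162239-110162438 (minus) for GNAT2, chr16:67280618-67280817 (plus) for SLC9A5, chr12:56401243-56401442 (plus) for IKZF4, chr1:153585614-153585813 (minus) for S100A16 and chr15:90358085-90358284 (minus) for ANPEP. The TSSs of TP63, SLC9A5 and IKZF4 used here are not the start of the main annotated transcript.
CXCL1: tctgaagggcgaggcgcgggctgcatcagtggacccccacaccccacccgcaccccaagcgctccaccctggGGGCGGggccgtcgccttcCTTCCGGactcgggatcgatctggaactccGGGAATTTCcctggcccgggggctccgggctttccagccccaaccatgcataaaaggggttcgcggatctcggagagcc
FOXF2: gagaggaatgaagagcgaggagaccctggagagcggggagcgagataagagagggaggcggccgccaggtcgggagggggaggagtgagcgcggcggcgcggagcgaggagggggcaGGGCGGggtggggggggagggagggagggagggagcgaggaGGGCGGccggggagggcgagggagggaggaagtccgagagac
TP63: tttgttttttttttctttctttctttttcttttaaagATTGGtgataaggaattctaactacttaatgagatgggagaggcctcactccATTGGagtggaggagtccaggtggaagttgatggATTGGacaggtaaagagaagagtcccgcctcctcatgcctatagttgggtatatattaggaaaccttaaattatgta
GNAT2: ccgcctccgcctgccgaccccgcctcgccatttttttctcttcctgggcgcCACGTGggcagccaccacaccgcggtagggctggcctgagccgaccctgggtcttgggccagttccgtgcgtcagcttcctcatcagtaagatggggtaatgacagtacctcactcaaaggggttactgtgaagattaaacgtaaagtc
SLC9A5: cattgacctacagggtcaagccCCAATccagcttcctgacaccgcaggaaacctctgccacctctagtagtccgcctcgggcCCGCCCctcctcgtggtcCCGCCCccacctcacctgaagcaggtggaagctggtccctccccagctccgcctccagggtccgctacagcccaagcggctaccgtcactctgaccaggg
IKZF4: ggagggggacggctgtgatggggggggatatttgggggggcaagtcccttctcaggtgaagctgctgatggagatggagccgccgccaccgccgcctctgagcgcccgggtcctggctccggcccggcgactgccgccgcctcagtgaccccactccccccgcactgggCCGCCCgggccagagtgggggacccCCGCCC
S100A16: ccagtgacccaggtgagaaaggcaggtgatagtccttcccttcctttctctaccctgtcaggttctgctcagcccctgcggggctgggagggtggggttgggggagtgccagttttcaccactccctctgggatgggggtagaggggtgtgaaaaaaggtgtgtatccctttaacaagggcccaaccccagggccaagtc
ANPEP: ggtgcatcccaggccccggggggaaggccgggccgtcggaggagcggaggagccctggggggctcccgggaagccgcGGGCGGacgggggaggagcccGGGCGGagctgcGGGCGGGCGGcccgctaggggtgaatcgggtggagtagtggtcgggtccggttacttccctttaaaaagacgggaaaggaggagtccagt

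The CXCL1 stretch holds a GC box starting 128 bases before the TSS, an ETS match at 109 and an NF-kB match at 79. FOXF2 has GC boxes at 83 and 42 bases before its TSS and a GC content of 74%, whereas the TP63 stretch is 38% GC, has 1 CpG and holds 3 CCAAT boxes, at 163, 111 and 77. ANPEP has 4 GC boxes between 123 and 86 bases before its TSS. The S100A16 stretch, with 1 CpG, holds none of the motifs searched.

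The lost peaks were narrower than the kept ones. Their median width in the NT list was 488 bp, with quartiles of 303 and 814 bp, against 780 bp (524 to 1191 bp) for kept peaks, 564 bp for those lost only in NT and 532 bp for those lost only in TAM. In the lists as a whole the median width was 632 bp in NT, 553 bp in NT + TPL, 406 bp in TAM and 455 bp in TAM + TPL. Wide peaks were among the lost ones too: 84 (5.33%) were 2000 bp or wider, compared with 8.48% of kept peaks, and the widest, over S100A16, measured 14376 bp. Around the TSS the lost peaks reached less far on both sides. At 250 bp upstream, 42.1% of the lost peaks with an annotated TSS still covered the position, against 66.1% of the kept ones, and at 250 bp downstream the shares were 51.9% and 70.5%.

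**Figure D1:**
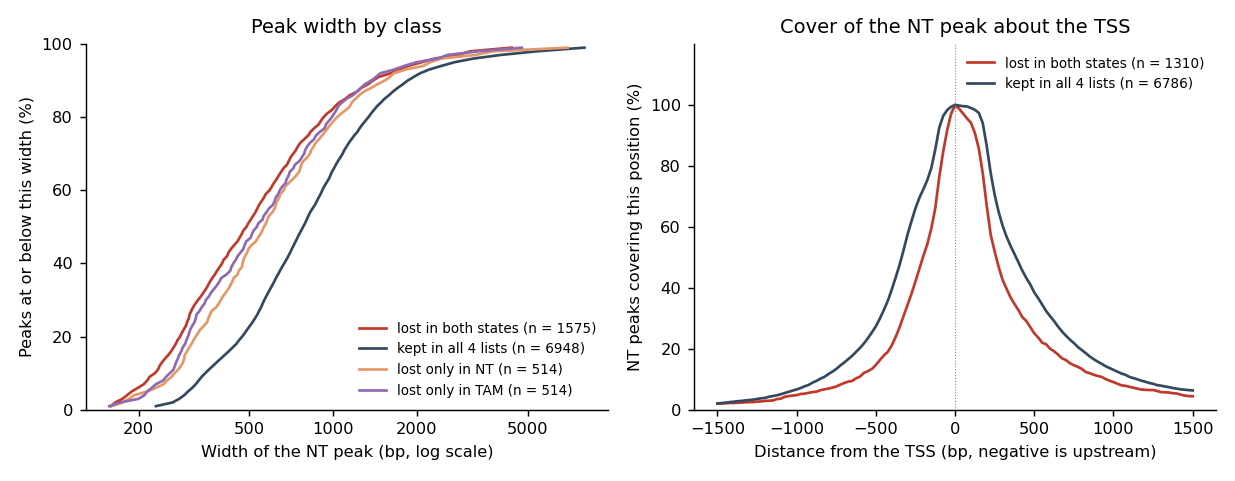
Left, cumulative share of NT peaks (%, vertical axis) by width (bp, log scale) for peaks lost in both states, kept, lost only in NT and lost only in TAM. Right, share of NT peaks (%) that cover each position around the TSS (bp) for lost and kept peaks. The lost class lies to the left, with a median of 488 bp against 780 bp, and its cover is narrower, 42.1% against 66.1% at 250 bp upstream.

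A list without a peak is not a promoter without RNAPII. The lists give no score, height or read count and carry no replicates, and by their names they hold peaks with a TSS, although 10.4% of the NT peaks held none in the annotation used here. The peak names of every list carry the number 1 after the condition, so a list may rest on the first ChIP replicate alone, which the sources used here do not settle. The names of the peaks also show that the TAM list was called with another setting than the other 3: 41.5% of its peaks carry a letter that marks a split peak, against 0 in each of the other lists. A further 1118 NT peaks were missing from the TAM list and from both TPL lists and are not counted among the 1575. Of the 1575 regions, 189 (12%) had a peak of a TPL list within 1000 bp, while the median distance to the nearest such peak was 53205 bp. At the edge of the rule, the nearest region to a TPL peak was that of SLC27A4 (chr9:131102410-131103237), at 4 bp, and the CIB1 region lay at 16 bp. Just outside the rule the smallest overlap was 2 bp, and the NOXA1 peak overlapped a TPL peak by 9 bp and the CD63 peak by 44 bp. TAM peaks covered a median of 65% of the lost NT peak.

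By annotation, lost peaks held fewer starts than kept ones. Of the 1575, 1310 held a GENCODE TSS, and 252 of the other 265 lay within 1000 bp of one. Among those with a TSS, 23.1% held a single TSS against 9.71% of kept peaks, and 14.7% held TSSs on both strands against 34.1%. Peaks lost only in NT or only in TAM held a single TSS in 17.2% and 15.7% and TSSs on both strands in 15.9% and 22.9%. The lost peaks were also narrower than the kept ones, and these shares were not adjusted for width. When 1 TSS was taken per peak, with the main protein-coding transcript first, it belonged to a protein-coding gene at 89.6% of lost and 96.4% of kept peaks, and to a long noncoding RNA at 9.16% and 2.99%. At peaks lost only in NT and only in TAM it belonged to a long noncoding RNA in 5.65% and 6.74%. By chromosome, the lost share of NT peaks ranged from 11.8% on chromosome 13 to 19.3% on chromosome 8, around the 14% of the whole list.

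Base content and short motifs were counted in 300-base windows, 250 bases before to 50 after the TSS, on hg19. The median GC content was 70.3% in the 1310 lost promoters and 66% in the 6786 kept ones. Even so, promoters poor in CpG were more frequent among the lost: a ratio of observed to expected CpG under 0.5 was found in 12.1% of them, 2.73% of the kept and 5.87% of all 10059 NT promoters. Neither trait was particular to this class. Promoters of peaks lost only in NT and only in TAM had a median GC content of 70.7% and 67.3%, and 8.48% and 6.29% of them were poor in CpG. Motifs were searched on both strands as exact letters with N for any base, and a base could belong to more than 1 motif. The ETS motif CCGGAAG was present in 7.94% of lost, 26.6% of kept and 21.6% of all promoters. For the YY1 motif AAGATGGCG the shares were 0.916%, 6.12% and 4.72%, for the NRF1 motif GCATGCGC 2.98%, 7.66% and 6.46%, and for the cAMP response element TGACGTCA 1.07%, 4.24% and 3.58%. The CCAAT box (CCAAT) stood in 27%, 37.1% and 36.1%. The other direction held for the GC box (GGGCGG), found in 79.9% of lost, 76.2% of kept and 76.2% of all promoters, and for the AP-1 motif TGANTCA, in 5.57%, 3.45% and 4.06%. The E-box CACGTG was about equally frequent (10.8%, 11% and 10.8%). The STAT motif TTCNNNGAA stood in 3.59%, 5.98% and 5.74%, the first 9 letters of the NF-kB site, GGGNNTTTC, in 3.82%, 4.89% and 4.81%, and the TATA box TATAAA, searched on the sense strand in the 50 bases before the TSS, in 0.992%, 1.9% and 1.63%. Promoters of peaks lost only in NT or only in TAM cells shared part of this. The ETS motif stood in 11.5% and 16% of them, YY1 in 1.74% and 2.47%, the GC box in 80.4% and 78.7% and AP-1 in 5.87% and 3.15%. The cAMP response element, in contrast, stood in 4.35% of promoters lost only in NT and 1.57% of those lost only in TAM cells, the STAT motif in 7.39% and 4.94%, and the CCAAT box in 28.9% and 45.6%. These shares describe letters in a window and have no test.

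**Figure D2:**
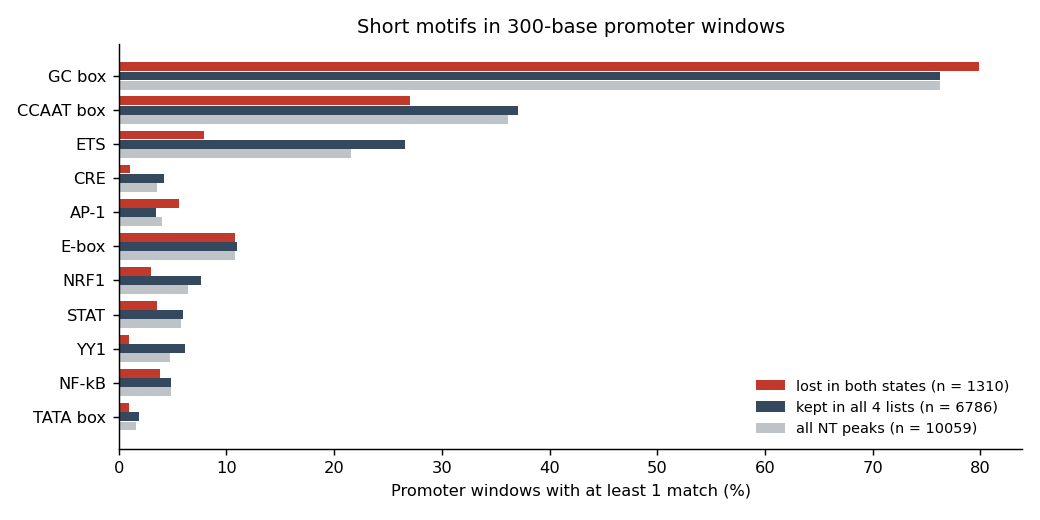
Share of 300-base promoter windows (%, horizontal axis) with at least 1 match to each named motif, for lost, kept and all NT promoters. ETS, YY1, NRF1 and cAMP response element matches were less frequent in the lost class (ETS 7.94% against 26.6% of kept), whereas GC box (79.9% against 76.2%) and AP-1 (5.57% against 3.45%) matches were more frequent.

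RNA was then measured for the genes whose TSS lies in a lost peak. They are 1392 genes with a name in the RNA annotation, of which 1245 passed the filter on low counts and were tested among 15763 genes, 81 were listed but too low, and 66 were not listed in any library. For 79.6% of the 1245 the start of the main transcript lay in the lost peak, and 135 also had another TSS in a TPL-list peak. Genes named below whose main start lay outside the lost peak include TP63, RGS19, SLC9A5, IKZF4, NEDD4L, NFKBIZ and SPRY1. The same holds for BBC3, CDC25A, CDC20, KDM2B, SMARCA2, WDR12 and ZNF395. The libraries held 7461309 to 8349448 expected counts each. The tested genes were expressed at a moderate level: the median was 7.58 and 7.95 FPKM (fragments scaled to transcript length and library size) in the NT libraries and 7.09 and 6.83 FPKM in the TAM libraries, compared with 11.4 to 12 FPKM for the 7420 kept genes. With TPL it was 5.16 and 4.51 FPKM in NT + TPL and 4.11 and 4.31 FPKM in TAM + TPL, below both DMSO libraries of each state. For the kept genes the TPL libraries lay between 9.31 and 10.1 FPKM. All 8 markers of basal breast epithelium reached 1 FPKM, 4 of them (KRT17, TP63, ITGB4 and EPCAM) with a lost peak. Their summed level was 16968 to 18744 FPKM in NT and 7474 to 7804 FPKM in TAM, and with TPL 10807 to 13770 and 3885 to 4253 FPKM. Their part in the results was not tested. Fibroblast, leukocyte and endothelial markers summed to at most 6.23, 19.9 and 1.73 FPKM, and the endothelial CDH5 was at 0.

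More of these genes fell with TPL than genes in general. A gene was called when the adjusted p of edgeR's quasi-likelihood test was at most 0.001 and the log2 fold change at least 1.2 in size. In NT cells 250 of 1245 genes (20.1%) fell with TPL, against 8.39% of all genes tested and 9.51% of the kept genes, and 14 (1.12%) rose, against 4.33% and 3.52%. In TAM cells 242 (19.4%) fell, against 7.31% and 7.76%, and 12 (0.964%) rose, against 3.92% and 3.07%. Their median log2 fold change, -0.42 for NT and -0.56 for TAM cells, lay below that of all genes (0.10 and 0.05). Of the genes of peaks lost only in NT cells 18.7% fell in NT and 20.2% in TAM cells, while genes of peaks lost only in TAM fell in 9.07% and 9.3%. Most genes with a lost peak, 919 (73.8%), were called in neither state. Uncalled genes were more frequent still over all genes tested, where 8.39% and 7.31% fell and 4.33% and 3.92% rose in NT and TAM cells.

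**Figure D3:**
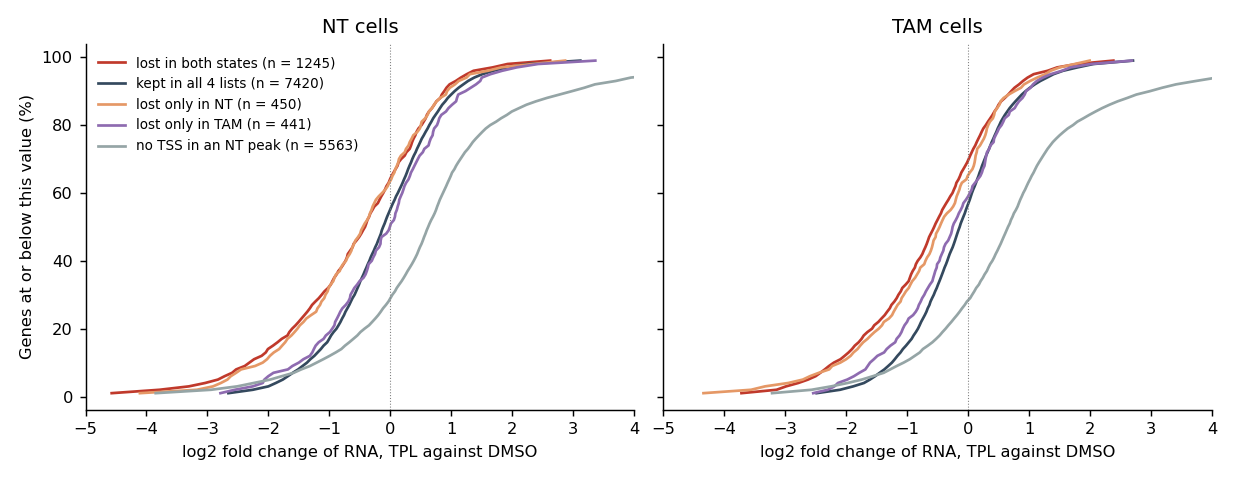
Cumulative share of genes (%, vertical axis) by log2 fold change of RNA with TPL in NT cells (left) and TAM cells (right), for genes of lost, kept, NT-only lost and TAM-only lost peaks and genes with no TSS in an NT peak. The curve of the lost class lies to the left of the kept one in both states, with medians of -0.42 and -0.56 against -0.12 and -0.14.

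The excess of falls over all genes held in each of 26 alternative settings in both states, but the number of falls did not. With the 2 groups fitted alone, for instance, 4.99% of these genes and 1.44% of all genes fell in NT cells. The share of falls over all genes also dropped in each of the leave-outs given next. Leaving out a library lowered the falls in TAM cells to 101 without TAM replicate 1, 117 without TAM replicate 2, 69 without TAM + TPL replicate 1 and 61 without TAM + TPL replicate 2, and the falls in NT cells to 145 without NT replicate 2. Another scaling shifted all genes together: with upper quartile scaling the median of all genes in NT cells was 0.32 in place of 0.10 and the genes with a lost peak gave 201 falls and 38 rises, and with GAPDH as the reference the median was -0.26. Over the alternatives at the same thresholds, rises numbered between 1 and 38 in NT cells and between 0 and 21 in TAM cells. Without NT replicate 1 there were 3 rises in NT cells, and without TAM replicate 1, TAM replicate 2 or TAM + TPL replicate 1 there were 0 in TAM cells.

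Falls were more frequent at wide peaks and at genes with a moderate or high level. In NT cells 16.5% of genes with a lost peak under 500 bp fell, 21.5% of those from 500 to under 1000 bp, 22.4% from 1000 to under 2000 bp and 31.1% at 2000 bp or more (n = 90). In TAM cells the shares were 16.1%, 18.6%, 25.7% and 31.1%. Kept peaks of the same widths gave 5.52%, 8.14%, 12.3% and 15.4% in NT and 3.73%, 6.21%, 10.3% and 15.1% in TAM cells. The median DMSO level of the lost-peak genes in these width classes was 6.79, 7.24, 7.78 and 21.8 FPKM. Width and level were not separated. By DMSO level, 7.87% of the lost-peak genes under 5 FPKM fell in NT cells, 27.9% of those from 5 to under 20 FPKM and 26.8% of those at 20 FPKM or more, against 2.73%, 10.3% and 13.6% of kept genes. In TAM cells these shares were 6.6%, 27.9% and 26.1%, against 1.02%, 7.18% and 13.5%. Genes under 5 FPKM have fewer reads, so a fall of the same size is harder to call there. The share of falls was higher for lost than for kept peaks in each of these width and level classes.

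Of the genes that fell, 186 did so in both NT and TAM cells, which is 74.4% of the NT falls and 76.9% of the TAM falls. Over all genes tested, 839 fell in both, 63.5% of the 1322 NT falls and 72.8% of the 1152 TAM falls. Among the genes with a lost peak none fell in one state and rose in the other. The effects in NT and TAM cells were measured on separate libraries. For each of the 186 genes both TPL libraries lay below both DMSO libraries of their state. A call with 2 libraries per group makes this order likely beforehand, so it adds no separate evidence. The median log2 fold change of the 186 was -2.32 (NT) and -2.28 (TAM), and 97 fell by at least 2 log2 units in both. In 6 genes RNA rose in both states. Counts over all genes are not given here for opposite directions, for falls of this size or for rises in both states, so these counts show no excess.

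**Figure D4:**
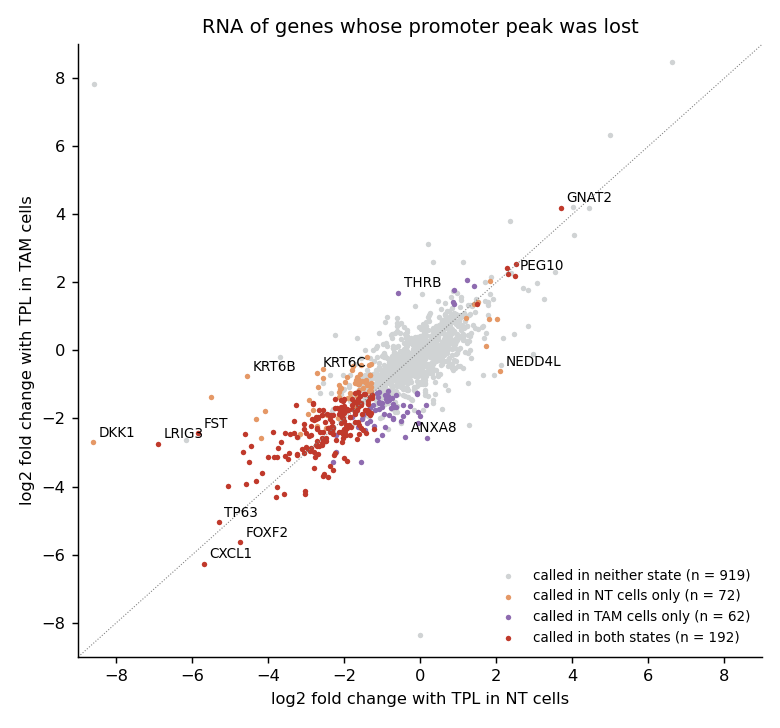
log2 fold change of RNA with TPL in NT cells (horizontal axis) and in TAM cells (vertical axis) for the 1245 tested genes with a lost promoter peak, coloured by the states in which they were called, with equality as a dotted line. CXCL1, FOXF2 and TP63 lie at the lower end near the line, DKK1, LRIG3, FST and KRT6B fell further in NT cells, and NEDD4L and ANXA8 lie below the line.

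The genes with the largest falls called in both states, by the mean of both log2 fold changes, are given first. To be named for a fall or a rise, a gene needed TPL libraries that did not overlap the DMSO libraries in either state. CXCL1, a chemokine that attracts neutrophils, measured 142 and 149 FPKM in the NT libraries and 4.32 and 1.35 FPKM with TPL, and in the TAM libraries 418 and 432 FPKM and 8.06 and 3.48 FPKM with TPL. The groups with and without TPL did not overlap, and the log2 fold changes were -5.69 ± 0.41 (SE) in NT and -6.27 ± 0.40 in TAM cells, with edgeR adjusted p = 2.55e-06 and 1.81e-06. FOXF2, a forkhead transcription factor, fell in NT cells from 13.2 and 15.9 FPKM to 0.59 and 0.48, and from 16.4 and 15.1 to 0.24 and 0.39 FPKM in TAM cells. That is a log2 fold change of -4.75 ± 0.29 and -5.64 ± 0.32.

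TP63 encodes p63, the p53-family factor of basal epithelia, and its lost peak (chr3:189507370-189508237) lies at an internal start, not at the start of the main transcript. Its RNA fell from 13.2 and 23.6 to 0.64 and 0.28 FPKM in NT cells and from 24.2 and 23.0 to 0.89 and 0.58 FPKM in TAM cells, log2 fold changes of -5.31 ± 0.38 and -5.04 ± 0.36. LAD1 encodes ladinin of the epithelial basement membrane zone. It was the most abundant of these genes in NT cells with DMSO, while CXCL1 was the most abundant in TAM cells. LAD1 RNA fell from 235 and 220 to 16.5 and 6.49 FPKM in NT cells and from 126 and 119 to 8.83 and 8.78 FPKM in TAM cells. IL1B, the inflammatory cytokine interleukin 1 beta, has a peak of 8553 bp that covers its gene. It fell from 154 and 142 to 6.12 and 6.82 FPKM in NT and from 65.7 and 81.1 to 10.2 and 5.51 FPKM in TAM cells. In these genes, too, no library with TPL reached a DMSO library of the same state, which was a condition of their choice.

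Of the other genes with the largest falls, TRIM47, a RING-type ubiquitin ligase, had log2 fold changes of -5.05 ± 0.29 (NT) and -3.99 ± 0.25 (TAM). CHST10, a sulphotransferase, changed by -4.58 ± 0.40 and -3.92 ± 0.36, and RGS19, a regulator of G protein signalling, by -3.80 ± 0.35 and -4.30 ± 0.36. LRIG3, a membrane protein of the LRIG family, had only 2 and 1 reads in the NT + TPL libraries against 178 and 231 in NT, a ratio of 129 (95% interval from counting error alone 43.9 to 629). In TAM cells its log2 fold change was -2.74 ± 0.33. FST, which encodes follistatin, the antagonist of activin, fell from 26.5 and 21.2 to 0.43 and 0.38 FPKM in NT and from 10.1 and 13.0 to 2.11 and 2.54 FPKM in TAM cells. When single libraries were omitted, the 10 genes with the largest falls kept all 10 calls in NT cells and 8 of 10 in TAM cells. LRIG3 lost its TAM call without TAM replicate 2 or either TAM + TPL library (highest adjusted p = 0.00221), and FST without TAM + TPL replicate 1 (adjusted p = 0.00127).

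**Figure D5:**
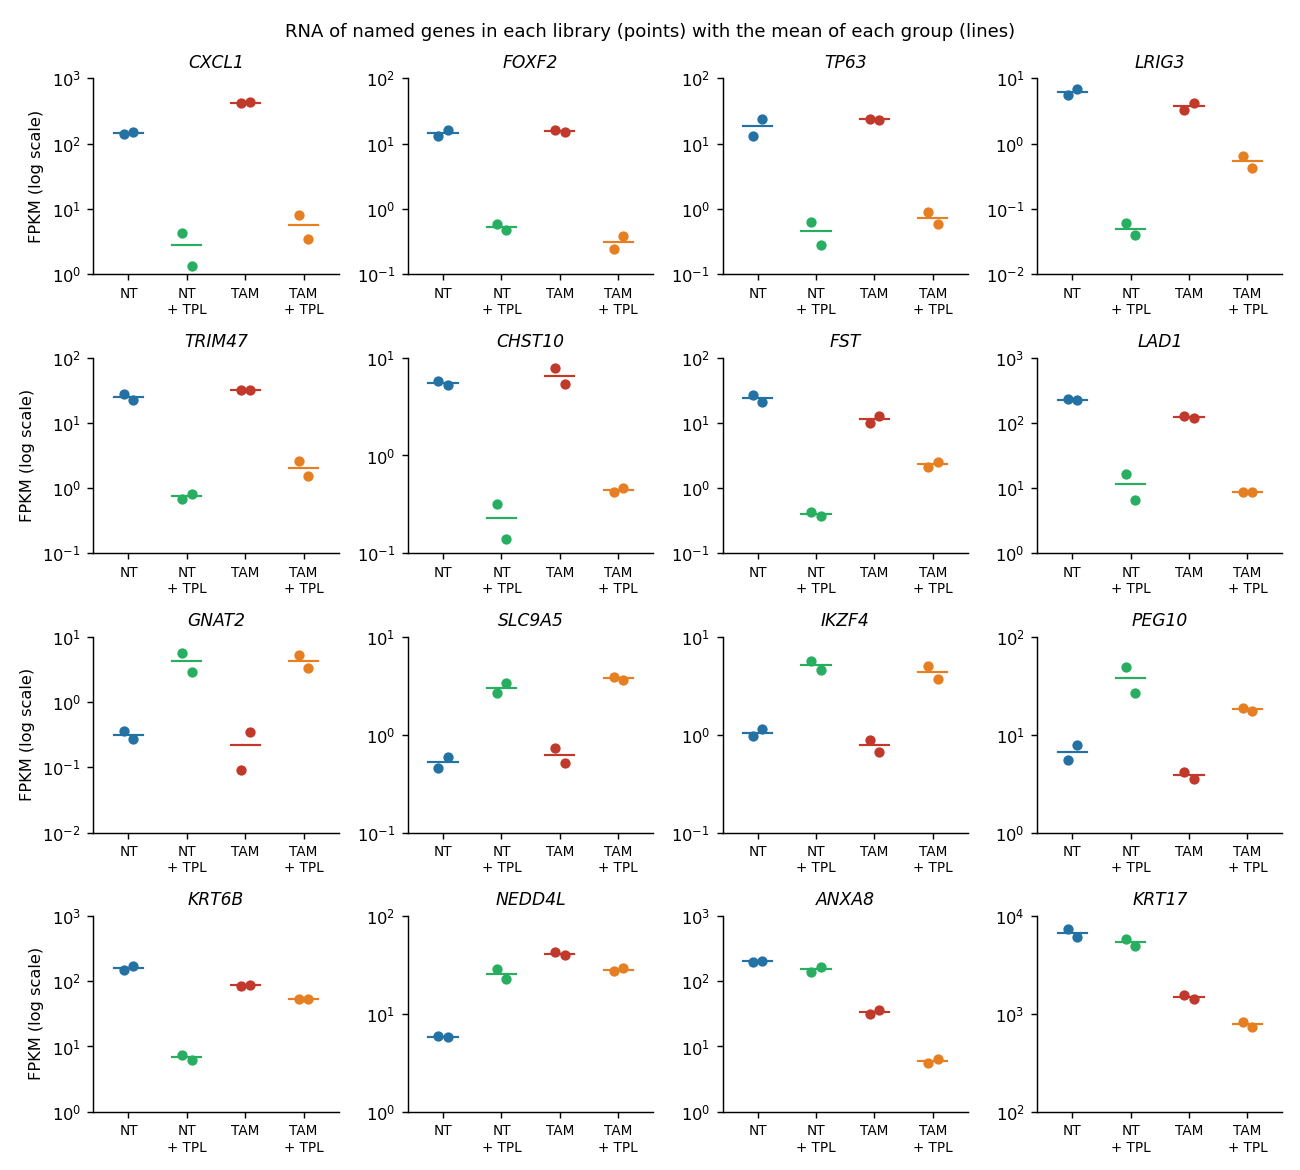
RNA level (FPKM, log scale) of 16 genes with a lost promoter peak in each of the 8 libraries (points, 2 per group) with the group mean (line). In the upper 8 genes both TPL libraries lie below the DMSO libraries of their state, and in GNAT2, SLC9A5, IKZF4 and PEG10 above them. The rule that chose these falls and rises required this. KRT6B, NEDD4L, ANXA8 and KRT17 differ between NT and TAM cells.

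A few genes gained RNA with a promoter peak lost from both TPL lists. Of the 20 genes that rose in either state, 13 (65%) had the start of the main transcript in the lost peak, compared with 82.3% of the 186 genes that fell in both. PEG10, an imprinted gene derived from a retrotransposon, rose from 5.52 and 7.85 to 49.1 and 26.6 FPKM in NT and from 4.20 and 3.55 to 18.9 and 17.5 FPKM in TAM cells, a log2 fold change of 2.48 ± 0.27 and 2.19 ± 0.27. HSPA12A, a distant member of the HSP70 family, rose from 0.76 and 1.23 to 5.58 and 4.38 FPKM and from 1.15 and 1.22 to 5.76 and 5.81 FPKM. The TPL libraries of both genes all lay above the DMSO libraries, which the choice of named rises required.

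IKZF4, a zinc finger factor of the Ikaros family, rose by 2.28 ± 0.27 log2 units in NT and 2.43 ± 0.27 in TAM cells, and SLC9A5, a sodium-proton exchanger, by 2.52 ± 0.34 and 2.55 ± 0.33. For both the lost peak covers a start other than that of the main transcript. PTPRM, a receptor-type tyrosine phosphatase, rose by 1.50 ± 0.20 and 1.35 ± 0.19. GNAT2, the transducin alpha subunit of cone photoreceptors, had 4 and 3 reads in NT against 59 and 30 in NT + TPL, and 1 and 4 in TAM against 55 and 37 in TAM + TPL, so its rise of 3.69 ± 0.62 and 4.19 ± 0.65 rests on few reads. SLC25A27, a mitochondrial carrier, was called in NT cells (1.82 ± 0.32) and GLCCI1, a glucocorticoid-induced gene, in TAM cells (2.08 ± 0.29). When single libraries were omitted, 2 of the 7 calls in NT cells (PEG10 and HSPA12A) and 0 of the 7 in TAM cells held every time, with adjusted p up to 0.0118 and 0.009, while every log2 fold change stayed above 1.2.

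Of the 5 genes with the highest DMSO levels, S100A16 alone was called with TPL, and in NT cells only. Its difference between the states, 0.40 ± 0.23, was not called. KRT17, a keratin of basal and stressed epithelia, stood at 7284 and 6144 FPKM in NT cells (5805 and 4947 with TPL) and at 1554 and 1408 FPKM in TAM cells (831 and 742 with TPL). Some of its reads may belong to near-identical copies. With TPL its log2 fold change was -0.33 ± 0.17 (NT, edgeR adjusted p = 0.131) and -0.96 ± 0.17 (TAM), neither called. HSPB1, the small heat shock protein HSP27, had 2946 and 2125 FPKM in NT and 307 and 310 in TAM, and log2 fold changes with TPL of -0.51 ± 0.29 and -1.09 ± 0.30. For MUC1, a membrane mucin, they were -0.72 ± 0.37 and -0.50 ± 0.37, and for PLP2, a small membrane protein, -0.16 ± 0.19 and -0.46 ± 0.19. PLP2 changed sign, to 0.06, in NT cells under upper quartile scaling.

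The 2 widest peaks described here lie over S100A16 and ANPEP. S100A16, a calcium-binding S100 protein under the 14376 bp peak (chr1:153575501-153589876), fell from 1072 and 908 to 363 and 336 FPKM in NT cells, a called log2 fold change of -1.51 ± 0.16. In TAM cells it went from 855 and 876 to 422 and 406 FPKM (-1.11 ± 0.16), under the minimum size for a call. ANPEP, the membrane aminopeptidase N, lies under a peak of 14282 bp. It had 148 and 161 FPKM in NT cells (161 and 87.5 with TPL) and 152 and 121 FPKM in TAM cells (67.9 and 63.5 with TPL), and was not called in NT (-0.34 ± 0.23) or TAM cells (-1.10 ± 0.24). Without NT + TPL replicate 2 the NT value was 0.02.

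With DMSO alone, 40 (3.21%) were lower in TAM than in NT cells, against 1.48% of all genes, and 14 (1.12%) were higher, against 1.46%. This comparison uses the DMSO libraries that also enter the TPL effects. The 40 became 3, against 5 higher, without either TAM library, so that neither the direction of the split nor the excess over all genes held there (0.239% and 0.238% lower, against 0.262% and 0.287% of all genes). They became 20 without NT replicate 1 and 22 without NT replicate 2, but 64 and 65 without NT + TPL replicate 1 and 2, and the 14 ranged from 5 to 25, while with GAPDH as the reference the split was 91 lower and 8 higher. CAV1, the main caveolin, was at 252 and 282 FPKM in NT and 28.3 and 33.3 in TAM, a log2 difference of -3.11 ± 0.20, and it fell with TPL in both states (-1.35 ± 0.18 and -1.84 ± 0.20). Those falls lost their call without NT replicate 2 (adjusted p = 0.00215) and without TAM + TPL replicate 2 (0.00149) respectively. ANXA8, an annexin with near-identical gene copies among which reads may be split, was at 199 and 205 FPKM in NT and 31.4 and 36.8 in TAM (-2.55 ± 0.19). In the other direction, NEDD4L, a ubiquitin ligase of ion channels, was at 5.92 and 5.79 FPKM in NT and 42.9 and 39.7 in TAM (2.83 ± 0.17). KRT6C, a keratin whose reads may be shared with the near-identical KRT6A and KRT6B, rose from 5.45 and 5.12 to 44.2 and 43.0 FPKM (3.05 ± 0.21). These 4 differences were called with any 1 library left out.

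The size of the TPL effect differed between the states in few genes. Of the 1245, KRT6B and NEDD4L passed the thresholds for a difference between the effects, and over all genes 3 of 15763 did (0.019%). At an adjusted p of at most 0.05 without a minimum size there were 18 (1.45%), against 0.85% of all genes. Of the 18, 11 had a TAM effect above the NT effect and 7 below, beside 76 and 58 over all genes. KRT6B, a keratin of stressed epithelia whose reads may be shared with KRT6A and KRT6C, went from 151 and 170 to 7.36 and 6.30 FPKM in NT cells and from 85.1 and 87.3 to 52.8 and 52.6 FPKM in TAM cells. The log2 fold changes of -4.56 ± 0.18 (NT) and -0.76 ± 0.16 (TAM, not called) gave a difference of 3.80 ± 0.23 (edgeR adjusted p = 4.42e-05). In NT cells NEDD4L rose with TPL, from 5.92 and 5.79 to 28.5 and 22.6 FPKM, whereas in TAM cells it was at 42.9 and 39.7 FPKM without and 27.2 and 29.1 FPKM with TPL, a difference of -2.71 ± 0.23. A NEDD4L transcript also starts in a TPL-list peak. Neither difference stayed under 0.001 throughout when libraries were left out (highest adjusted p = 0.00415 for KRT6B and 0.0243 for NEDD4L). ANXA8 fell in TAM cells (-2.55 ± 0.20) and was at -0.40 ± 0.18 in NT cells, and FST fell more in NT than in TAM cells by 3.42 ± 0.43.

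Genes were next counted by lists of known pathways, which were drawn up with earlier results of these data known. Over all genes with a TSS in an NT peak, 1392 of 11310 (12.3%) had one in a lost peak. The counts per list stand beside that share without a test. Inflammatory genes under NF-kB control had 5 members with a lost peak out of 19 with an NT peak. All 4 that were tested fell in TAM cells and 3 of them in NT cells, with medians of -3.70 (NT) and -2.75 (TAM). Beside CXCL1 and IL1B these were NFKBIZ, a nuclear co-regulator of NF-kB, with -2.88 ± 0.28 and -2.22 ± 0.27, and BIRC3, an apoptosis inhibitor, which was called only in TAM cells (-1.35 ± 0.22, NT -0.84 ± 0.21). The BIRC3 call was lost without any 1 of 6 libraries (adjusted p up to 0.0102), and that of NFKBIZ in TAM cells without TAM replicate 1 or either TAM + TPL library (up to 0.00296). NFKBIZ also has a TSS in a TPL-list peak. Of the 20 other tested genes of this list, 8 fell in NT and 9 in TAM cells, with medians of -1.14 and -1.29.

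In growth factor signalling and its feedback, 3 of 21 genes with an NT peak had a lost one, and 2 fell in both states. Of the 20 others tested, 6 fell and 3 rose in NT and 5 fell and 2 rose in TAM cells. EREG, the EGF receptor ligand epiregulin, fell from 14.1 and 13.0 to 5.12 and 3.22 FPKM in NT and from 13.1 and 12.5 to 3.02 and 3.18 FPKM in TAM cells. SPRY1, a Sprouty inhibitor of that pathway, fell by 3.57 ± 0.38 and 2.43 ± 0.34 on the log2 scale. The third, ERBB2, was not called. Among WNT, NOTCH and YAP genes, 3 of 24 had a lost peak. DKK1, a secreted WNT antagonist, fell in NT cells from 103 and 129 FPKM to 0.29 in each TPL library (-8.62 ± 0.63). In TAM cells it was at 3.50 and 6.35 FPKM, and at 1.55 and 0.07 FPKM with TPL (-2.69 ± 0.60, edgeR adjusted p = 0.00409, not called). TEAD3, a DNA-binding partner of YAP, fell in both states (-1.93 ± 0.21 and -1.76 ± 0.21). In TAM cells the call of SPRY1 was lost without any TAM or TAM + TPL library (adjusted p up to 0.00502), that of TEAD3 without TAM replicate 1 or either TAM + TPL library (0.0021) and that of EREG without either TAM + TPL library (0.0014). The sole TGF-beta and BMP member of 20 was TGFB1 itself, at -0.06 ± 0.18 and -0.24 ± 0.18, values that became 0.16 and 0.01 under upper quartile scaling.

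Of cell cycle genes with an NT peak, 3 of 33 of the G1/S and replication list and 1 of 26 of the mitosis list had a lost one. Of the 32 other tested G1/S genes 3 fell in NT and 6 in TAM cells, and of the 27 other mitosis genes 0 and 6. CCND2, cyclin D2, fell from 36.5 and 44.8 to 7.30 and 5.44 FPKM in NT (-2.69 ± 0.19) and stood at 11.3 and 11.0 FPKM in TAM and 5.79 and 5.09 FPKM in TAM + TPL (-1.08 ± 0.19, not called). CDC25A, the phosphatase that activates cyclin-dependent kinases, fell in NT cells (-2.92 ± 0.34) and was not called in TAM cells (-1.47 ± 0.28). CDC20, an activator of the anaphase-promoting complex, fell in TAM cells (-1.69 ± 0.20) and had -0.78 ± 0.21 in NT cells, and its call was lost when any TAM or TAM + TPL library was left out (adjusted p up to 0.00295). CDC25A and CDC20 each have another TSS in a TPL-list peak. The apoptosis and p53 list had 2 of 27 (BBC3 and BCL2) and the DNA repair list 2 of 47, BARD1 among them, with no call. BBC3, the p53 target PUMA, had -1.30 ± 0.51 and -1.14 ± 0.54.

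Chromatin regulators had 4 of 53. CBX2, a Polycomb subunit, fell in both states (-2.72 ± 0.35 and -2.82 ± 0.33), as did KDM2B, a CpG-binding demethylase (-1.79 ± 0.18 and -1.71 ± 0.18). TET3, an enzyme that oxidises 5-methylcytosine, fell in NT cells (-1.67 ± 0.29) but was not called in TAM cells (-1.35 ± 0.30), and SMARCA2, the BRM ATPase, rose in NT cells (1.80 ± 0.27) with 0.93 ± 0.26 in TAM cells. The lost KDM2B peak covers a start other than that of the main transcript. The lost SMARCA2 peak covers an internal start and another TSS of the gene stands in a TPL-list peak. The NT call of TET3 was lost without any library but NT + TPL replicate 1 (adjusted p up to 0.0105), and that of SMARCA2 without either NT or TAM library or TAM + TPL replicate 2 (up to 0.00447). The TAM calls of CBX2 and KDM2B were lost without either TAM + TPL library (up to 0.00227 and 0.00162), and that of CBX2 also without TAM replicate 1.

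Adhesion and matrix genes had 10 of 33, of which SDC1 alone was called. SDC1, the cell surface proteoglycan syndecan 1, fell from 154 and 164 to 32.2 and 29.1 FPKM in NT and from 393 and 334 to 89.3 and 94.8 FPKM in TAM cells, with log2 fold changes of -2.38 ± 0.17 and -2.03 ± 0.17 that were called with any library left out. Over the 10 genes the median was -0.16 (NT) and -0.12 (TAM), against -0.46 and 0.21 for the 35 others of the list. ITGB4, the hemidesmosome integrin, has a lost peak of 8002 bp and was at 366 and 393 FPKM in NT cells (724 and 533 with TPL) and 266 and 209 FPKM in TAM cells (317 and 298 with TPL). Its TPL libraries lay above the DMSO libraries in both states, without a call (0.72 ± 0.19 and 0.32 ± 0.19). It was named after its values were seen, as was SRC, the tyrosine kinase gene, which went from 27.9 and 36.4 to 13.7 and 8.57 FPKM in NT and from 14.8 and 10.7 to 4.37 and 4.72 FPKM in TAM cells. Both falls of SRC were called (-1.55 ± 0.24 and -1.54 ± 0.25), and they were not recomputed with libraries left out. Reads of the ErSrc transgene cannot be told apart from those of SRC in these files.

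Zinc finger genes with a ZNF number had 16 of 324 with an NT peak. Of 15 tested, 6 fell in NT and 5 in TAM cells and none rose, and the median of -1.42 in each state compares with 0.10 and 0.32 for the 441 other tested ZNF genes. ZNF618 (-2.55 ± 0.26 and -3.70 ± 0.28), ZNF710 (-2.95 ± 0.28 and -2.90 ± 0.28), ZNF503 (-2.33 ± 0.27 and -2.25 ± 0.27) and ZNF341 (-2.84 ± 0.33 and -2.03 ± 0.31) fell in both states. ZNF22 (from 3.68 and 3.46 to 0.88 and 0.90 FPKM) and ZNF480 (-1.42 ± 0.19) were called in NT cells only and ZNF395 (-1.81 ± 0.22) in TAM cells only. The ZNF22 call was lost with any library left out (adjusted p up to 0.0055) and the ZNF480 call without either NT library (0.00248). In TAM cells those of ZNF395, ZNF341, ZNF503 and ZNF710 were lost without either TAM + TPL library (up to 0.00385, 0.00818, 0.00264 and 0.00116), those of ZNF395, ZNF341 and ZNF503 also without TAM replicate 1, and that of ZNF395 also without TAM replicate 2.

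Of 476 antisense RNA genes with a TSS in an NT peak, 87 had one in a lost peak, and 36 of these were tested. Their median was 0.48 in NT and 0.55 in TAM cells, near the 0.62 and 0.73 of the 469 other antisense genes tested. Of those others, 4 fell and 25 rose in NT and 5 fell and 25 rose in TAM cells. AGAP2-AS1 fell in TAM cells (-1.92 ± 0.31) and HOXC-AS1 rose in NT cells, from 8.03 and 8.99 to 29.4 and 27.6 FPKM (1.73 ± 0.29). Because strand-specific counting is not stated for these libraries, reads of an antisense gene cannot be told apart from those of its partner, and neither call held throughout with libraries left out (adjusted p up to 0.00983 and 0.00901). Of 132 intergenic RNA genes with a TSS in an NT peak, 34 had one in a lost peak, and 14 of these were tested. The lost shares of both lists lie above the 12.3% over all genes with an NT peak, without a test. LINC01123 alone of the 14 was called, with a fall in NT cells (-2.15 ± 0.26) whose call was lost without NT replicate 2. SNHG28, the 1 small nucleolar RNA host gene of 23, was not tested.

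For several lists the count was 0, beside the 12.3% over all genes with an NT peak. These lists held between 15 and 53 genes with an NT peak, and the counts of 0 were not tested. Immediate early transcription factors had 0 of 22 although 15 of the 26 tested fell in NT and 12 in TAM cells, with medians of -1.52 and -1.44. TFIIH, RNAPII and general initiation factors had 0 of 41, cholesterol and lipid synthesis 0 of 24, mitochondrial ribosome and respiratory chain 0 of 53, and the genes that the study names in its text 0 of 15. The study picked several of the last for more promoter RNAPII and more RNA with TPL in these same data. Of the 20 tested, 12 rose in NT and 9 in TAM cells. The 0 of that list was therefore largely set beforehand and adds no evidence. Ribosome biogenesis had 1 of 45, WDR12, which assembles the large ribosomal subunit and fell in both states (-1.65 ± 0.20 and -1.23 ± 0.19), while 20 of its 44 other tested genes fell in NT cells. The lost WDR12 peak also holds a TSS of NBEAL1 on the other strand, and WDR12 has another TSS in a TPL-list peak. Its calls were lost without NT replicate 2 in NT cells (adjusted p = 0.00104) and without any TAM or TAM + TPL library in TAM cells (up to 0.0102). Pausing and elongation factors had 1 of 32, the bromodomain gene BRD3 (-0.93 ± 0.26 and -0.76 ± 0.25, not called), and cilia and centrosome genes 2 of 43, among them the kinesin gene KIF3A (-0.61 ± 0.23 and -0.99 ± 0.24, not called).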

How the data were processed

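RNAPII ChIP-Seq and RNA-Seq of MCF10A-ErSrc cells were used. The peak positions are as deposited: the authors used SOAP2 for alignment to hg19, then MACS (version 1.4.2 in the submitters' processing notes) against input, and by name kept TSS-containing peaks in 1 list per condition. The notes also name BWA and HOMER, with no role. How the 2 ChIP replicates entered a list is not given in the sources used here, and peak names carry the number of replicate 1 only. Positions in the text count from 1. The expected counts were deposited as the authors made them, from poly-A RNA with Bowtie2 and RSEM and without normalization. The FPKM values were also made by the authors with RSEM, scaled to transcript length and library size. A gene missing from a library's file had no read there and was taken as 0.

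Overlaps of 1 bp or more gave the peak classes. Genes were assigned by GENCODE release 44 TSSs lifted to GRCh37, and RNA entries were summed per gene name (21714 genes; 143 of 23604 entries had no match). Rounded expected counts entered edgeR 4.0.16 under R 4.3.3 (TMM factors 0.975 to 1.03, its filter on low counts, 1 quasi-likelihood fit of 8 libraries in 4 groups, Benjamini-Hochberg over 15763 genes). DESeq2 1.42.0 and limma 3.58.1 served as alternatives, and the test was checked on simulated data. FPKM was used to show levels. With 7461309 to 8349448 counts per library, genes with few reads were filtered and not tested.

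Named genes are members with a mean of at least 1 FPKM: up to 10 falls and 8 rises with non-overlapping libraries in both states, up to 4 each for TAM against NT and for differing effects, the 5 highest DMSO levels, the widest peaks, and called members (or the highest) of 22 lists. Some items that this rule names are not reported here. The members and lists were chosen with earlier results of these data known. Deviations from the group means showed little positive correlation between libraries of the same replicate number (-0.246 to 0.0777). This cannot settle whether samples were run in pairs, and the main fit used no pairing. p-values measure the spread between 2 biological replicates per group. Alternatives were other scalings, filters, tools, overlap rules, gene assignments and each library left out.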

Additional observations from a re-analysis of the deposited data

Results flagged for a closer look

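In 8 of the genes named above the effect of TPL differed between NT and TAM cells by edgeR's interaction test at an adjusted p of at most 0.05. The difference is the log2 fold change in TAM minus that in NT cells. It was 3.80 for KRT6B (adjusted p = 4.42e-05), -2.71 for NEDD4L (0.000549), 3.42 for FST (0.00438), -2.15 for ANXA8 (0.00438), 2.05 for KRT6C (0.0186), 1.60 for CCND2 (0.0186), 4.16 for LRIG3 (0.0146) and 5.93 for DKK1 (0.0307). In 6 of these genes the fall was deeper in NT cells. In 5 of the 6 (KRT6B, FST, CCND2, LRIG3 and DKK1) both DMSO libraries of TAM cells also lay below both of NT cells. Those DMSO libraries form part of the difference itself, so their order adds no separate evidence. KRT6B, NEDD4L, FST and ANXA8 were named because their effects differed. Over all tested genes with a lost peak at this threshold, 11 had a TAM effect above the NT effect and 7 below. KRT6B and KRT6C are near-identical genes that may share reads, as may ANXA8 and its copies. The value of LRIG3 rests on 3 reads in the NT + TPL group and that of DKK1 on TAM + TPL libraries at 1.55 and 0.07 FPKM. The causes were not tested.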

How the results depend on the processing

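Of 2403 recomputed values of the named genes 2149 kept their direction and side of the threshold, 214 no longer passed it, 33 newly passed it, 7 moved and none of a called gene reversed. Restricting NT peaks to 1000 bp or wider left 281 lost regions. Dropping the need for a TAM peak (chosen after seeing the data) gave 2693. Of genes that fell in NT cells (250), fitting the 2 groups alone gave 61, an adjusted p of 0.05 without a minimum fold 518 and entries as deposited 109, and in TAM cells (242) the last 2 gave 550 and 80. Rises in NT cells (14) became 38 with upper quartile scaling, 8 with GAPDH, 27 with DESeq2, 34 without the filter and 1 with 2 groups. They became 178 at 0.05, 1 by entry, 8 by main TSS and 28 without the need for a TAM peak. Rises in TAM cells (12) became 21 with upper quartile scaling, 20 without the filter and 21 with 2 groups. They became 114 at 0.05, 0 by entry and 20 without the need for a TAM peak. Genes lower in TAM than NT (40) became 91 with GAPDH, 61 with DESeq2, 68 without the filter and 66 with 2 groups. They became 26 with limma on log2(FPKM + 0.1), 143 at 0.05, 9 by entry and 65 without the need for a TAM peak. Genes higher in TAM than NT (14) became 8, 22, 24 and 25 with GAPDH, DESeq2, no filter and 2 groups. They became 63 at 0.05, 4 by entry, 9 by main TSS and 9 without genes that have another TSS in a TPL peak. Differing TPL effects (2) became 11 with DESeq2, 13 without the filter, 18 at 0.05, 0 by entry and 1 with either limma fit, by main TSS, without another TSS or without a TPL peak nearby.

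Leaving out single libraries gave 145 to 305 falls and 3 to 26 rises in NT cells, 61 to 305 falls and 0 to 21 rises in TAM cells, 3 to 65 genes lower and 5 to 25 higher in TAM than NT cells, and 0 to 8 differing effects. A group left with 1 library is assumed to vary like the others. With the replicate block the counts were 197 falls and 8 rises in NT cells, 199 and 7 in TAM cells, 31 lower and 10 higher between the states and 1 differing effect. With crossed numbers, a pairing added after seeing the data, they were 264 and 15, 254 and 12, 45 and 14, and 2. The causes of these shifts were not tested. The peak lists carry no depth or replicates, so no error can be given for a lost peak.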
